A study of Homo sapiens with 6 samples.

Results

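Fatty acyl desaturases insert double bonds into the acyl chains of lipids, and the RNA of 5 human genes of this kind, SCD, SCD5, FADS1, FADS2 and FADS3, was measured in CAL27 cells given lactate. The 5 genes are 5 of the 31368 listed in the expression table and were picked by their symbols. They were chosen with earlier results of the same contrast known, the difference of SCD between lactate-treated and untreated libraries among them, so that difference is given for each gene as a description. No p-value is given for it, and the number of the 5 past the threshold used for all genes is printed once, as a count. All 5 passed the filter on low values, which asked for at least 1 FPKM (fragments per kilobase of gene length, scaled to the library) in at least 3 of the 6 libraries and left 11792 genes. FADS2 passed it through the untreated libraries, reaching 1 FPKM in 3 of 3 of them and in 1 of 3 lactate libraries.

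CAL27 is an established cell line grown from a squamous cell carcinoma of the human tongue, and it was used here without any genetic change named in the labels. The 2 groups are cells given 10 mM lactate for 24 h and untreated cells, with 3 libraries each. Poly-A RNA was sequenced as a bulk measurement. The labels name neither the form of lactate nor the pH, and they do not say whether the 3 libraries of a group came from separate cultures, so the spread between libraries may be technical.

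A stearoyl-CoA desaturase places the first double bond in a saturated acyl chain and so turns stearate into oleate and palmitate into palmitoleate. SCD is the form found in most human tissues and SCD5 is a second form, well known from brain and pancreas. FADS1 and FADS2 are front-end desaturases: FADS2 opens the route by which dietary linoleate and alpha-linolenate become long polyunsaturated fatty acids, and FADS1 acts later in it to give arachidonate and eicosapentaenoate, while FADS3 acts on the sphingoid base of ceramides. The 3 FADS genes stand side by side on chromosome 11. Transcription of SCD, FADS1 and FADS2 is known to be driven by the sterol regulatory element-binding protein SREBP-1, with help from the CCAAT-binding factor NF-Y and the GC-box factor SP1, and by the liver X receptors.

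The sequences around the start sites are shown because these genes are known to be controlled there and because the 5 differed in how far they moved with lactate. Each is a RefSeq promoter window of 300 bases on GRCh38.p14, with 250 bases before the start site and 50 from it on. They are printed 5′ to 3′ on the gene's own strand, and capitals mark every match to CCAAT or to the GC box GGGCGG, on either strand.
SCD, chr10:100346983-100347282, plus strand: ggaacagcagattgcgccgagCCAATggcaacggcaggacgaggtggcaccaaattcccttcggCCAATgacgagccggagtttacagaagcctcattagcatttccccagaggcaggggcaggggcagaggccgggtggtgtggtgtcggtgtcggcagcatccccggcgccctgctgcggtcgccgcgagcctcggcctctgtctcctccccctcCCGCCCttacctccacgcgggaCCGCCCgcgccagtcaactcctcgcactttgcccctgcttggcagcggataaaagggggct
SCD5, chr4:82798747-82799046, minus strand: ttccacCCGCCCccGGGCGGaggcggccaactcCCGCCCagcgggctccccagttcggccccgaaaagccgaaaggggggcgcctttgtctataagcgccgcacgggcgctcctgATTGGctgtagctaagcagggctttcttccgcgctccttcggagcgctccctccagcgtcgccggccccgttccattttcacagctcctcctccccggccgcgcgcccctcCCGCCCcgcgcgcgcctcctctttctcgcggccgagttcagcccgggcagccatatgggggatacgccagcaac
FADS1, chr11:61816954-61817253, minus strand: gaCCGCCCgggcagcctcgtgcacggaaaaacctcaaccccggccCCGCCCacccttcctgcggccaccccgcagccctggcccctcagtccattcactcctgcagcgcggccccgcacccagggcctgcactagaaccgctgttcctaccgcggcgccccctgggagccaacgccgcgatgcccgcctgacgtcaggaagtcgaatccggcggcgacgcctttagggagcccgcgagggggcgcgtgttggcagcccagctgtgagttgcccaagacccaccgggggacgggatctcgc
FADS2, chr11:61816154-61816453, plus strand: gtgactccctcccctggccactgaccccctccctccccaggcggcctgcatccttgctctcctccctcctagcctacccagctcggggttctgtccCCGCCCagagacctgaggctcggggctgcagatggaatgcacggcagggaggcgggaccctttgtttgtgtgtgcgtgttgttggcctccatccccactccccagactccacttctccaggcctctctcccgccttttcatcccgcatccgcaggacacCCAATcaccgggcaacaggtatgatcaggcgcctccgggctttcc
FADS3, chr11:61891496-61891795, minus strand: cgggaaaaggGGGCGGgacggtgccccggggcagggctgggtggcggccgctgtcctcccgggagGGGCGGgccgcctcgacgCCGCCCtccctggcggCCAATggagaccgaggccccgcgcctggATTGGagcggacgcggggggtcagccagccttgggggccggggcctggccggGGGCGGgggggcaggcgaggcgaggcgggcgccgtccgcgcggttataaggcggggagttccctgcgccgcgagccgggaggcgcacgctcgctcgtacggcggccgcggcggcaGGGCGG

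The SCD window held 2 CCAAT boxes on the gene's strand, at -229 to -225 and at -186 to -182 counted from the start site as 0, and 2 GC boxes close to the start, at -33 to -28 and -11 to -6. SCD5 had 1 CCAAT box, on the other strand at -135 to -131, with 4 GC boxes. FADS1 had no CCAAT match and 2 GC boxes. FADS2 has 2 windows in RefSeq that share 99 bases: the one printed had 1 CCAAT box, at 5 to 9, and 1 GC box, and the one not printed, chr11:61815953-61816252, had neither. FADS3 had 2 CCAAT boxes and 5 GC boxes, and at 81.0% its window had the highest GC content of the 6, against 65.0% to 72.0% in the others. The same search on both strands found a CCAAT box in 34.6% and a GC box in 45.0% of 35116 RefSeq windows. The letters TCACNCCAC, a form of the sterol regulatory element in which N is any base, were in none of the 6 windows and in 1.13% of all windows, and the E-box CACGTG was in none of the 6 and in 7.26% of all. Exact direct repeats of AGGTCA spaced by 1 base (DR1) or by 4 bases (DR4), patterns known to bind nuclear receptors, were in none of the 6 and in 0.0228% (DR1) and 0.0199% (DR4) of all. A CCAAT match does not overlap a GC-box match in any of these windows, and a match describes the letters only. The start sites of FADS1 and FADS2 lie 599 bp apart for the printed FADS2 window and 800 bp apart for the other. The 2 genes run in opposite directions and their first stretches lie over each other.

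The denominators behind FPKM ran between 30957477 and 40220226 fragments in the lactate libraries and between 25163374 and 33297625 in the untreated ones. All 8 squamous epithelial markers, KRT5, KRT14, KRT6A, KRT17, TP63, CDH1, EPCAM and DSG3, stood at 1 FPKM or more in every library, with summed levels of 465 to 474 FPKM with lactate and 457 to 462 FPKM without. Single markers differed in both directions, such as KRT5 at 118 FPKM with lactate and 155 FPKM without and KRT17 at 136 FPKM with lactate and 108 FPKM without. CDH1 averaged 45.4 FPKM with lactate and 37.1 FPKM without, and TP63 averaged 32.0 FPKM with lactate and 26.3 FPKM without. The part of these differences in the results on the desaturases was not tested. No fibroblast, leukocyte or endothelial marker reached 1 FPKM in every library. Their summed levels were 0.75 to 0.802 FPKM with lactate and 0.570 to 0.665 FPKM without for 3 fibroblast genes, 0.0598 to 0.0748 FPKM with lactate and 0 to 0.0816 FPKM without for 2 leukocyte genes, and 1.03 to 1.13 FPKM with lactate and 1.13 to 1.41 FPKM without for 3 endothelial genes, the last almost wholly CDH5. Of the fibroblast genes, COL1A1 averaged 0.431 FPKM with lactate and 0.399 FPKM without, and PDGFRB 0.343 FPKM with lactate and 0.224 FPKM without. COL3A1 was at 0 to 0.00444 FPKM. The T-cell gene CD3E was at 0 to 0.0748 FPKM and the other leukocyte gene, CD68, at 0 to 0.049 FPKM. The fibroblast gene DCN and the leukocyte gene PTPRC were not among the genes listed. In a bulk sample, fewer cells of a type and less RNA per cell cannot be told apart.

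SCD was the desaturase that differed most between the groups. Gene positions are those of GENCODE 29 on GRCh38. SCD (ENSG00000099194, chromosome 10, 100347124 to 100364834, plus strand) had 27.7, 27.9 and 27.2 FPKM in the lactate libraries and 58.7, 57.5 and 56.3 FPKM in the untreated libraries. The groups were far apart and each was tight: the level was 27.6 ± 0.375 FPKM with lactate and 57.5 ± 1.2 FPKM without (SD, n = 3 each), a ratio of 0.480. On the log2(FPKM + 1) scale used for all fold changes here, the difference was -1.03 with a standard error of 0.023. Of the 11792 genes tested, 3 had a lower fold change on this scale. The added 1 FPKM shrinks the fold change of a low gene more than that of SCD, so this rank depends on it. SNORA2B, for example, had a ratio of 0.320 but a fold change of -0.82. By level SCD held rank 1733 of the tested genes in the lactate libraries and rank 888 in the untreated ones. The fragments behind these values, recovered from the FPKM, were 4500, 4819 and 5739 with lactate and 8710, 7583 and 9833 without. In the lactate libraries the spread of SCD, a coefficient of variation of 1.36%, was no wider than the 1.41% that counting alone gives, and in the untreated libraries it was 2.09% against 1.07%.

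The second stearoyl-CoA desaturase had overlapping groups. SCD5 (ENSG00000145284, chromosome 4, 82629539 to 82798857, minus strand) had 2.61, 2.81 and 2.64 FPKM with lactate and 2.42, 2.59 and 2.61 FPKM without. The groups overlapped, with means of 2.69 ± 0.106 FPKM in lactate libraries and 2.54 ± 0.104 FPKM in untreated libraries (SD, n = 3 each). The fold change was 0.058 with a standard error of 0.041, and it rested on 342, 391 and 450 fragments with lactate and 290, 276 and 368 without. The coefficient of variation between libraries was 3.96% with lactate and 4.09% without, where counting alone gives a single library 5.04% with lactate and 5.68% without. The level of SCD was 10.3 ± 0.336 times that of SCD5 with lactate and 22.6 ± 1.40 times without (SD, n = 3 each).

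**Figure D1:**
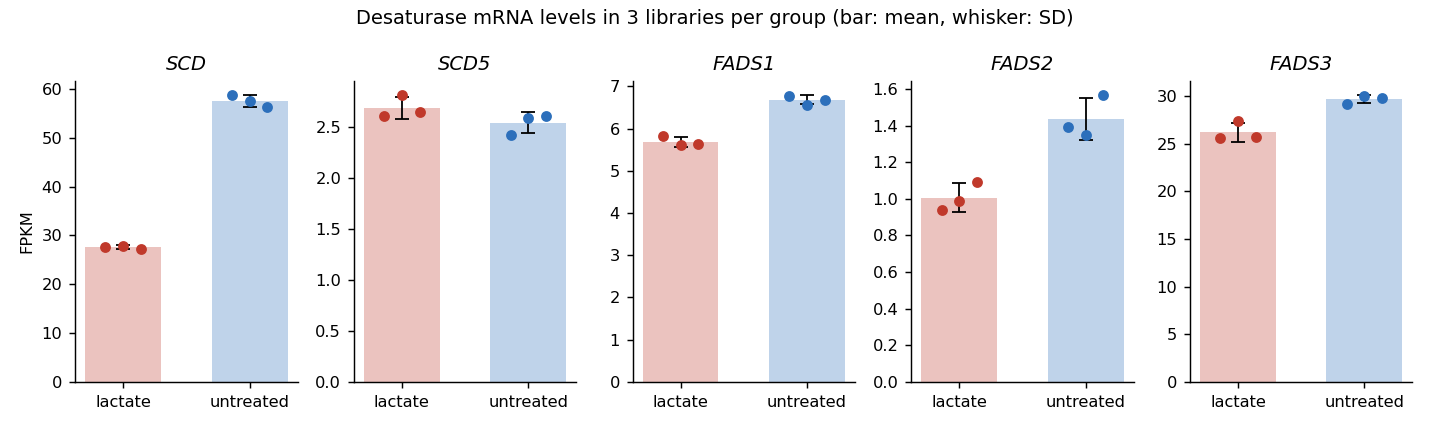
FPKM of the 5 desaturase genes in each library (points), with the 3 lactate libraries left of the 3 untreated ones, over bars for the mean with whiskers for the SD; each gene has its own axis, starting at 0. The groups are apart for SCD, FADS1, FADS2 and FADS3 and overlap for SCD5.

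The 3 FADS genes were each lower with lactate by far less than SCD. FADS1 (ENSG00000149485, chromosome 11, 61799625 to 61829318, minus strand) had 5.83, 5.61 and 5.64 FPKM in lactate libraries and 6.78, 6.57 and 6.69 FPKM in untreated libraries. Every lactate library was below every untreated one, with means of 5.69 ± 0.119 FPKM in lactate libraries and 6.68 ± 0.107 FPKM in untreated libraries (SD, n = 3 each), a ratio of 0.852. The fold change of FADS1 was -0.20 with a standard error of 0.030.

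FADS2, the front-end desaturase that opens the polyunsaturated route, was the lowest of the 5. FADS2 (ENSG00000134824, chromosome 11, 61792980 to 61867354, plus strand) had 0.937, 0.988 and 1.09 FPKM with lactate and 1.39, 1.35 and 1.57 FPKM without. These groups did not overlap either, and the means were 1.01 ± 0.0798 FPKM in lactate libraries and 1.43 ± 0.115 FPKM in untreated libraries (SD, n = 3 each), a ratio of 0.701. At a level this low the added 1 FPKM hides part of the difference: the fold change was -0.28 on the log2(FPKM + 1) scale with a standard error of 0.058, and -0.51 with a standard error of 0.078 from the recovered fragments (limma's voom). Those fragments numbered 306, 343 and 464 with lactate and 415, 358 and 550 without.

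FADS3, the ceramide desaturase, was the most abundant of the 3. FADS3 (ENSG00000221968, chromosome 11, 61873519 to 61892051, minus strand) had 25.6, 27.3 and 25.7 FPKM with lactate and 29.2, 30.01 and 29.8 FPKM without. The highest lactate library stayed below the lowest untreated one. The means were 26.2 ± 0.991 FPKM in lactate libraries and 29.7 ± 0.405 FPKM in untreated libraries (SD, n = 3 each), a ratio of 0.883 and a fold change of -0.17 with a standard error of 0.031.

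In all, 4 of the 5 desaturases were past the threshold of the fit across all genes (limma, Benjamini-Hochberg adjusted p under 0.05), each of them lower, and SCD5 was not. Of all genes tested, 30.9% were lower by the same rule, 27.7% were higher and 58.6% were past it in either direction. Lactate and untreated libraries did not overlap for 4 of the 5, all lower, and for 34.2% of all genes tested in that direction, 65.5% in either. The median fold change was -0.20 over the 5 and -0.016 over all genes tested. Because the contrast led to the choice of the genes, nothing is read from these counts.

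The FADS1 and FADS2 values share a limit of counting. In GENCODE 29 the FADS2 gene spans FADS1 on the opposite strand through long upstream transcripts, and their exons overlap by 490 nt. FADS2 also shares 49 nt of exon with FEN1, a flap endonuclease of DNA replication on the same strand. The sources used here do not say whether counting took strand into account, so fragments from the FADS1 and FADS2 overlap cannot be told apart. Strand cannot separate fragments of the stretch that FADS2 shares with FEN1 either. FEN1 had 5116 to 7083 fragments a library and FADS2 306 to 550. The size of these shares was not tested. The gene lengths behind FPKM, recovered together with the fragments, also matter. They were 10228 nt for FADS1 and 10553 nt for FADS2, against longest transcripts of 4525 nt and 5073 nt.

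By deposited FPKM the order of levels was the same in both groups: SCD, FADS3, FADS1, SCD5, FADS2. In the untreated libraries each step was wider than the spread. In the lactate libraries the top 2 could not be separated by their ranges, 27.2 to 27.9 FPKM for SCD and 25.6 to 27.3 FPKM for FADS3, although SCD was above FADS3 within each library, 1.02 to 1.08 times. In untreated libraries SCD was 1.89 to 2.01 times FADS3. Per kilobase of the longest transcript rather than of all exons, the lactate order changed at the top, with 31.0 FPKM for FADS3 and 27.0 FPKM for SCD, while the untreated values stayed at 56.2 FPKM for SCD and 35.1 FPKM for FADS3. On that scale FADS1 stood at 12.9 FPKM with lactate and 15.1 FPKM without, SCD5 at 3.67 FPKM with lactate and 3.47 FPKM without, and FADS2 at 2.09 FPKM with lactate and 2.98 FPKM without.

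The summed level of the 5 genes was 63.2 ± 1.3 FPKM with lactate and 97.8 ± 0.799 FPKM without (SD, n = 3 each), a ratio of 0.646. Most of this difference lay in the stearoyl-CoA desaturases. SCD and SCD5 together gave 30.3 ± 0.449 FPKM in lactate libraries and 60.03 ± 1.11 FPKM in untreated libraries, and the 3 FADS genes together gave 32.9 ± 0.904 FPKM in lactate libraries and 37.8 ± 0.342 FPKM in untreated libraries (SD, n = 3 each). SCD made up 43.7% ± 0.520 of the sum with lactate and 58.8% ± 0.763 without (SD, n = 3 each). FADS3 took up 41.4% with lactate and 30.3% without, FADS1 9.01% with lactate and 6.83% without, SCD5 4.25% with lactate and 2.60% without, and FADS2 1.59% with lactate and 1.47% without. These shares sum to a whole, so a lower share of 1 gene goes with higher shares of others. The sums, shares and ratios here rest on deposited FPKM and would differ per kilobase of the longest transcript. On that other scale FADS3 was above SCD with lactate, at 31.0 FPKM against 27.0 FPKM. Within the front-end pair, FADS1 was 6.22, 5.68 and 5.16 times FADS2 in lactate libraries and 4.88, 4.87 and 4.27 times in untreated libraries, and the groups did not overlap.

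**Figure D2:**
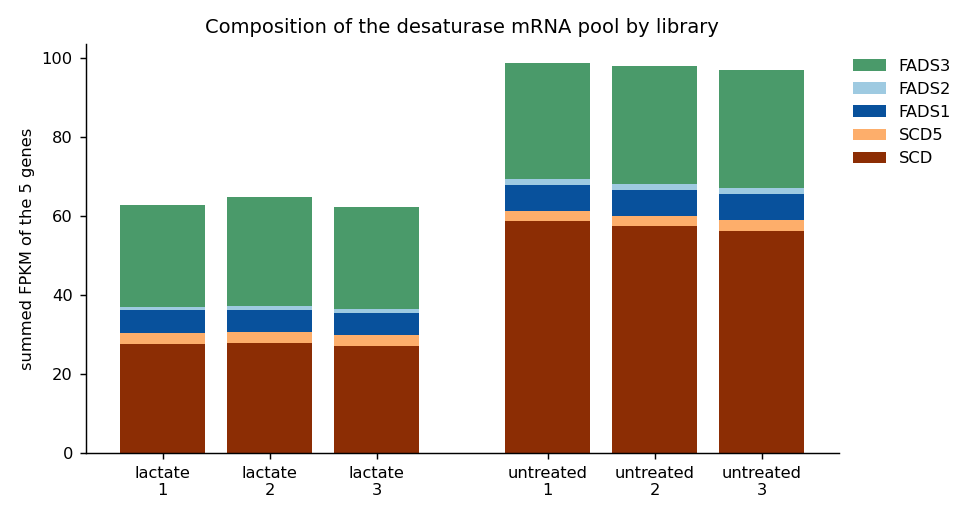
Summed deposited FPKM of the 5 desaturases per library, split by gene, with the 3 lactate libraries left of the 3 untreated ones. The lactate libraries total 62.3 to 64.7 FPKM, the untreated ones 97.0 to 98.5 FPKM, and the SCD layer accounts for most of the gap.

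The GC content of the longest transcript of the 5 genes ran from 47.1% in SCD through 49.1% in SCD5, 50.1% in FADS1 and 56.1% in FADS3 to 58.6% in FADS2. Across the table genes of low GC content tended to higher fold changes, as the plot against GC content shows, and the fit was repeated on 11588 genes after a trend on GC content and length had been taken out of every library. SCD then had a fold change of -1.03, SCD5 of 0.12, FADS1 of -0.19, FADS2 of -0.25 and FADS3 of -0.11. FADS3 moved most, and SCD kept its value.

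**Figure D3:**
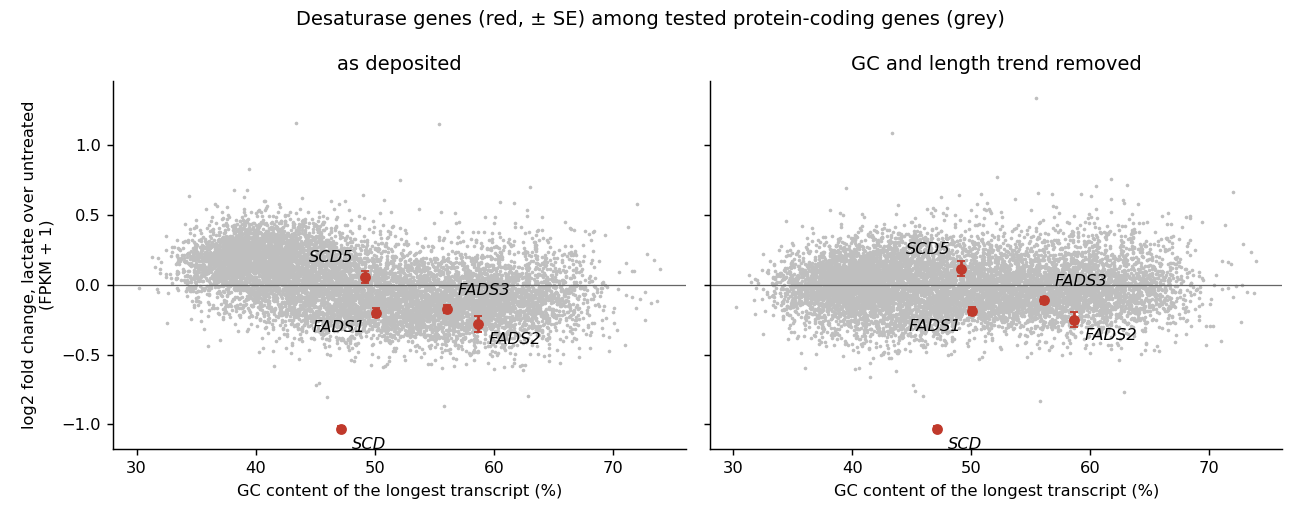
Log2 fold change, lactate over untreated on log2(FPKM + 1), against the GC content of the longest transcript for the tested protein-coding genes (grey), with the 5 desaturases in red with their standard errors; the left panel is as deposited and in the right one a trend on GC content and length is removed from every library. SCD, at 47.1% GC and -1.03, lies below the cloud in both panels, and the other 4 lie within it.

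Genes whose profile over the 6 libraries was most like that of a member were found by the Euclidean distance between profiles of log2(FPKM + 1), each centred on its own mean. Distances are given as a description over 6 libraries that share the same contrast. They largely follow the size of the fold change, which led to the choice of the genes, so nothing is read from them. The 5 nearest to SCD were JADE2 (distance 0.230), INSIG1 (0.311), SREBF1 (0.333), SNORA2B (0.349) and FST (0.389). JADE2, a PHD-finger scaffold of a histone acetyltransferase complex, averaged 5.46 ± 0.295 FPKM with lactate and 10.8 ± 0.198 FPKM without (SD, n = 3 each), a fold change of -0.87. INSIG1 and SREBF1 belong to the sterol-sensing control of SCD itself. FST, the activin antagonist follistatin, had 19.5 ± 0.521 FPKM with lactate and 32.8 ± 0.978 FPKM without (SD, n = 3 each), a fold change of -0.72. SNORA2B, a small nucleolar RNA, passed the filter through the untreated libraries, at 0.561 FPKM with lactate and 1.75 FPKM without. No gene came closer to SCD than 0.230, whereas the nearest gene to each other member lay 0.016 to 0.033 away. With 3 tested genes at a lower fold change than SCD, few genes could lie near it.

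Among those nearest to FADS1, at 0.018 to 0.022, were HJURP, a chaperone of centromeric histone, the phosphatase PPM1G, DEGS1 and BFAR. DEGS1 is the ceramide-forming desaturase that acts just before FADS3 in sphingolipids. Those nearest to FADS2 lay 0.033 to 0.068 away and were USF2, an E-box transcription factor, the GTPase DRG2, CDK5RAP1, ZNF689 and the ubiquitin-conjugating enzyme UBE2G2. Those nearest to FADS3 lay 0.016 to 0.026 away and were CLUHP3, a pseudogene whose reads may be shared with its parent gene, SDF4, PITRM1, CTDNEP1 and GADD45A. With the GC and length trend removed CLUHP3, CTDNEP1 and GADD45A did not pass (limma, adjusted p = 0.0504, 0.34 and 0.195). Those nearest to SCD5, at 0.026 to 0.035, were SUCLG2, POM121, TMEM120B, CCND3 and THNSL1, and none of these passed the test as deposited, although CCND3, TMEM120B and POM121 did, all higher, with the GC and length trend removed (limma, adjusted p = 0.0038, 0.0241 and 0.0369). Among the members themselves FADS1 and FADS3 were closest, at 0.118, followed by FADS1 and FADS2 at 0.173 and FADS2 and FADS3 at 0.199. SCD lay 0.936 to 1.34 from the others.

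The regulators of these genes differed in both directions. The list held 21 genes known to control transcription of the desaturases, of which 19 could be tested: 7 fell, 4 rose and 8 did not pass, with a median fold change of -0.046. SREBF1, which encodes SREBP-1, had 5.76, 6.26 and 5.85 FPKM in lactate libraries and 10.4, 11.9 and 10.9 FPKM in untreated libraries. Its fold change was -0.79 with a standard error of 0.051 (limma, adjusted p = 2.91e-05). INSIG1, an SREBP target whose protein holds SREBP back in the endoplasmic reticulum, had 9.0, 9.28 and 8.82 FPKM in lactate libraries and 15.7, 16.6 and 17.2 FPKM in untreated libraries. Its fold change was -0.80 (limma, adjusted p = 1.26e-05), and as for SREBF1 the groups were far apart. INSIG2, the second anchor, went the other way, at 8.0 ± 0.421 FPKM with lactate and 5.97 ± 0.618 FPKM without (SD, n = 3 each), a fold change of 0.37.

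Smaller differences were spread over the other regulators. SREBF2, the SREBP of the cholesterol genes, had a fold change of -0.22, the NF-Y subunit NFYC of -0.35, the retinoid X receptor RXRB of -0.29, the carbohydrate-response partner MLX of -0.25 and the liver X receptor NR1H2 of -0.080. NR1H2 stood at the edge of the threshold (limma, adjusted p = 0.0461) and did not pass without any 1 library other than untreated replicate 1 (adjusted p between 0.0785 and 0.142). It did not pass either with the GC and length trend removed, at -0.016, with quantile normalization, at -0.034, or scaled to recovered totals, at -0.014 (limma, adjusted p = 0.679, 0.339 and 0.728). MBTPS2, a protease that releases SREBP, rose by 0.29, the fatty acid receptor PPARA by 0.26 and the NF-Y subunit NFYA by 0.12. PPARA passed the filter through the lactate libraries only, as every untreated library was below 1 FPKM. PPARA was therefore not tested in the fits that drop a lactate library. After the GC and length trend was removed MBTPS2 and NFYA no longer passed (limma, adjusted p = 0.0585 and 0.149). SCAP, the sterol sensor, had a fold change of -0.051 and did not pass, nor did the protease MBTPS1 at 0.058, NR1H3 at 0.022, RXRA at -0.060, PPARD at -0.027, MLXIP at -0.044, NFYB at 0.11 and SP1 at -0.046. With the GC and length trend removed SP1 and MBTPS1 did pass, at -0.14 and 0.076 (limma, adjusted p = 0.0046 and 0.0212). PPARG and MLXIPL were below the filter.

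Stearoyl-CoA desaturases draw electrons from NADH through cytochrome b5 reductase and cytochrome b5. Of 7 such genes 4 could be tested: 2 fell, 1 rose and 1 did not pass, with a median of -0.090. CYB5B, the cytochrome b5 of the outer mitochondrial membrane, had 46.9 ± 0.257 FPKM with lactate and 58.0 ± 0.797 FPKM without (SD, n = 3 each), a fold change of -0.30. The reductase CYB5R1 had a fold change of -0.23 and CYB5R4 of 0.13, and CYB5R3, the main reductase of the endoplasmic reticulum, stood at 23.5 ± 0.304 FPKM with lactate and 22.8 ± 1.3 FPKM without (SD, n = 3 each) and did not pass. CYB5R3 did pass without untreated replicate 2, at 0.090, with the GC and length trend removed, at 0.11, and with quantile normalization, at 0.11 (limma, adjusted p = 0.025, 0.0116 and 0.0452). CYB5R4 did not pass without untreated replicate 3 or lactate replicate 3, at 0.12 and 0.11 (limma, adjusted p = 0.0503 and 0.0621). The sign of CYB5R4 turned to -0.061 once the GC and length trend was removed, and it did not pass there (limma, adjusted p = 0.168). CYB5A, the cytochrome b5 of the endoplasmic reticulum that serves SCD, was below the filter.

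The saturated acyl chains that SCD uses are made by the fatty acid synthesis genes, of which 7 of 10 could be tested: 4 fell, 1 rose and 2 did not pass, with a median of -0.17. The 3 with the smallest p were MID1IP1, an activator of acetyl-CoA carboxylase, at 12.8 ± 0.442 FPKM with lactate and 18.4 ± 0.246 FPKM without, fatty acid synthase FASN at 19.7 ± 0.488 FPKM with lactate and 27.7 ± 1.08 FPKM without, and ATP citrate lyase ACLY at 24.8 ± 0.237 FPKM with lactate and 28.3 ± 0.228 FPKM without (SD, n = 3 each). Their fold changes were -0.49, -0.47 and -0.19. Elongation lengthens chains before and after desaturation: 11 of 13 genes could be tested, 2 fell, 6 rose and 3 did not pass, with a median of 0.11. These counts depended on the processing. With the GC and length trend removed 3 rose, and with quantile normalization or scaled to recovered totals 1 fell. ELOVL4, the elongase of very long polyunsaturated chains, had 3.68 ± 0.0901 FPKM with lactate and 2.03 ± 0.0895 FPKM without (SD, n = 3 each), a fold change of 0.63. The dehydratase HACD2 rose by 0.34, and ELOVL1, the elongase of saturated very long chains, had a fold change of -0.29.

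Among 10 other enzymes built on a related desaturase fold, 9 were in the table, 4 could be tested and 1 passed, with a median of -0.041. That was DEGS1, the dihydroceramide desaturase, at 37.0 ± 0.75 FPKM with lactate and 42.3 ± 0.623 FPKM without (SD, n = 3 each), a fold change of -0.19. The count for this list depended on the processing. With quantile normalization, recovered fragments or the GC and length trend removed 2 were lower, and with that trend removed and the replicate number as a block 3 were. Scaled to recovered totals 1 was higher. Of 33 genes of acyl chain activation, carriage, esterification and storage 29 could be tested: 8 fell, 11 rose and 10 did not pass, with a median of 0.073. The 3 with the smallest p were higher with lactate: MBOAT2, an acyltransferase that favours oleate, by 0.32, the acyl-CoA synthetase ACSL4, which prefers arachidonate, by 0.27, and ACSL1 by 0.29. Of 18 genes that use or guard polyunsaturated chains 12 could be tested: 3 fell, 6 rose and 3 did not pass, with a median of 0.072. PLA2G4A, the phospholipase that frees arachidonate, had 5.14 ± 0.291 FPKM with lactate and 3.22 ± 0.257 FPKM without (SD, n = 3 each), a fold change of 0.54. The prostaglandin E synthase and cochaperone PTGES3 rose by 0.19, and AIFM2, the ferroptosis suppressor that regenerates ubiquinol, had a fold change of -0.27.

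Over the 7 lists, 86 of 111 genes in the table could be tested, and 27 fell, 29 rose and 30 did not pass, with a median of 0.040. Over all genes tested 3649 fell, 3265 rose and 4878 did not pass. The split between lower and higher depends on the library total: scaled to the totals of recovered fragments rather than to the denominators behind the deposited FPKM, 2579 of all genes were lower and 4162 higher, and of the pathway genes 22 were lower and 37 higher. No list was tested as a set, and nothing particular to a list is read from these counts.

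**Figure D4:**
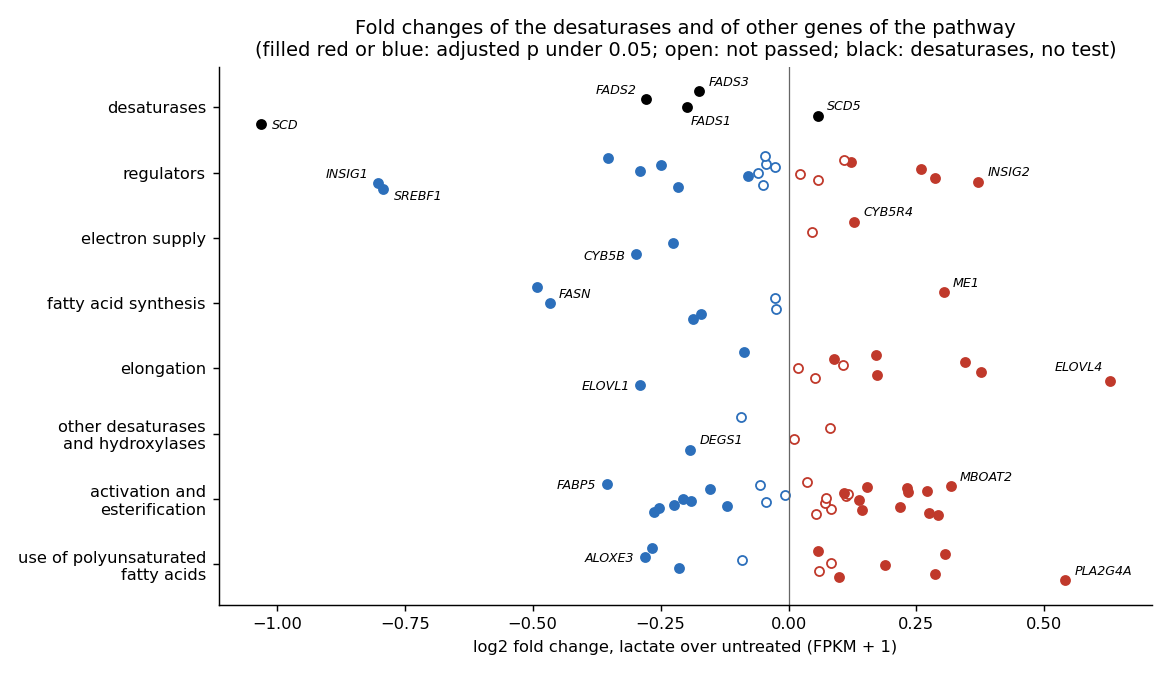
Log2 fold change, lactate over untreated on log2(FPKM + 1), of the tested genes of each pathway list (blue lower, red higher, filled where the adjusted p is under 0.05), with the 5 desaturases in black on the top row; points are shifted up and down only to keep them apart. SREBF1 at -0.79 and INSIG1 at -0.80 lie nearest to SCD at -1.03.

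Position was not used to choose the genes. Within 100 kb of a member GENCODE 29 has 31 other genes, of which 24 were listed and 9 could be tested: 4 fell, 2 rose and 3 did not pass. Of all genes tested, 30.9% were lower, 27.7% were higher and 58.6% were past the threshold in either direction, so nothing is read from these counts. Near SCD, CWF19L1 had 13.3 ± 0.116 FPKM with lactate and 15.3 ± 0.138 FPKM without (SD, n = 3 each), a fold change of -0.19, and BLOC1S2, at -0.034, did not pass. Once the GC and length trend was taken out BLOC1S2 did pass, at -0.12 (limma, adjusted p = 0.00555). The lincRNA OLMALINC, on the strand of SCD and 8679 bp from it, was below the filter and not tested. It had 0.325, 0.559 and 0.406 FPKM in lactate libraries and 0.730, 0.736 and 0.662 FPKM in untreated libraries. Its groups did not overlap, and the fragments behind them were 137, 250 and 222 with lactate and 281, 252 and 300 without. Other neighbours of members below the filter also had groups apart. MYRF, by the FADS cluster, was higher, at 0.411, 0.516 and 0.422 FPKM with lactate and 0.325, 0.314 and 0.301 FPKM without. TMEM150C, near SCD5, was higher on 0 to 3 fragments a library, and AP003733.4, near FADS3, was lower. The groups did not overlap for 65.5% of all genes tested, so nothing is read from these.

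Near SCD5, SEC31A, a coat protein of secretory vesicles, rose by 0.22, and THAP9-AS1, an antisense RNA whose fragments cannot be told apart from those of the opposite strand if strand was not used, rose by 0.18 and no longer passed after the GC and length trend was removed (limma, adjusted p = 0.0762). In and around the FADS cluster TMEM258, FEN1 and FTH1 fell. TMEM258, a subunit of the oligosaccharyltransferase complex, had 26.2 ± 0.598 FPKM with lactate and 33.0 ± 1.15 FPKM without, FEN1 had 76.8 ± 1.88 FPKM with lactate and 97.7 ± 2.37 FPKM without, and FTH1, the ferritin heavy chain, a gene with near-identical pseudogenes, had 725 ± 25.2 FPKM with lactate and 840 ± 14.1 FPKM without (SD, n = 3 each). Their fold changes were -0.32, -0.34 and -0.21, and that of FTH1 did not pass after quantile normalization (limma, adjusted p = 0.213). RAB3IL1, at -0.095, and MIR6746, at 0.063 on 1 to 5 fragments a library, did not pass.

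**Figure D5:**
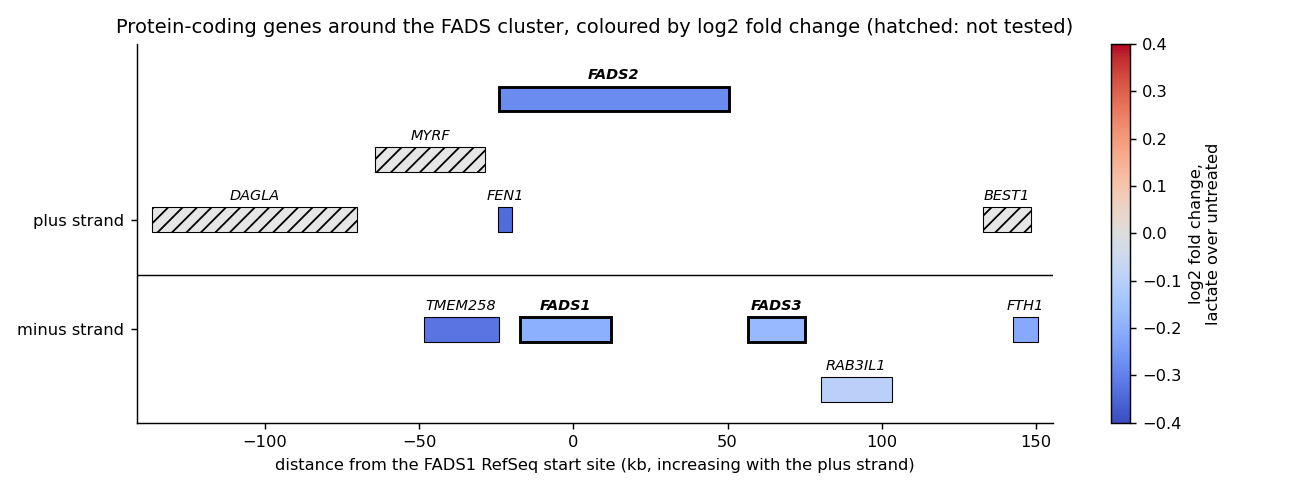
Protein-coding genes around the FADS cluster drawn to scale by strand, at their distance in kilobases from the FADS1 start site, with the log2 fold change, lactate over untreated on log2(FPKM + 1), as the colour and genes below the filter hatched. FADS1, FADS2 and FADS3 are at -0.20, -0.28 and -0.17, TMEM258 is at -0.32 and FEN1 at -0.34. FTH1 is at -0.21, and RAB3IL1, at -0.095, did not pass.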

How the data were processed

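Poly-A RNA of CAL27 cells was sequenced in 6 libraries, 3 given lactate and 3 untreated, grouped by the treatment in the labels. The authors deposited 1 table of FPKM for 31368 genes. The submitters' processing notes name hg38 as the build and, as tools, featureCounts 1.5.0-p3, StringTie 1.3.3b, HISAT2 2.0.5 and fastp. What each tool did, which annotation release was used and whether strand counted is not given in the sources used here. Chromatin data of the same project are not analysed here.

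The 11792 genes that reached 1 FPKM in 3 or more libraries were fitted with limma 3.58.1 in R 4.3.3 (trend and robust options) on log2(FPKM + 1), with Benjamini-Hochberg adjustment over all of them and a threshold of 0.05. A pseudocount of 1 understates the fold change of low genes. Steps between low FPKM values gave whole fragments, within 0.003, for 31363 of 31368 genes, and recovered totals were 98.0% to 99.1% of the FPKM denominators in lactate libraries and 102.9% to 104.1% in untreated ones. Python 3.11.15 was used for tables and matplotlib 3.10.9 for figures. The fit was also run on simulated data with few changed genes, the same dispersion for all genes and no GC trend. The real data differ in these points, so that run does not speak for the calls here. Gene positions, longest transcripts and GC content are from GENCODE 29, and promoter windows from RefSeq on GRCh38.p14. The gene lengths behind FPKM, also used for the length trend, were recovered as lengths that give whole fragments. Where several did, the one nearest to the GENCODE 29 exon length was taken. They equalled that exon length for 16694 genes. The protein sequences were not used here.

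The members and the 7 gene lists were chosen with earlier results of these data known. The text names all 5 members, in each list the 3 genes with the smallest p past the threshold, every tested regulator and electron-supply gene, every tested gene within 100 kb of a member, and the 5 genes most like each member, of which 1 is not reported here. OLMALINC and the genes below the filter were named after their values were seen. Separate cultures are not stated, so a p-value speaks only of the spread between these 6 libraries. The alternatives were other scalings, filters and pseudocounts, recovered fragments, removal of the GC and length trend, a replicate block and fits that drop 1 library. The labels do not say that the replicate numbers pair libraries of the 2 groups, so the main fit did not take them as pairs. Deviations of same-numbered libraries correlated weakly, which does not settle the question.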

Additional observations from a re-analysis of the deposited data

How the results depend on the processing

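The fold changes of the 5 desaturases, which the choice of the genes used, are given under 16 alternatives as a description. SCD ranged from -1.06 to -0.93, SCD5 from 0.025 to 0.12, FADS1 from -0.23 to -0.14, FADS2 from -0.51 to -0.24 and FADS3 from -0.20 to -0.11. SCD5 and FADS2 are not among the genes left by a filter of 5 FPKM. FADS2 moved most, to -0.51 with recovered fragments and -0.47 with a pseudocount of 0.1, which hides less of a low gene's change. With each library left out in turn SCD ran from -1.05 to -1.02, SCD5 from 0.034 to 0.073, FADS1 from -0.21 to -0.19, FADS2 from -0.31 to -0.24 and FADS3 from -0.20 to -0.16.

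With the filter at 5 FPKM, which leaves fewer genes, 16 pathway genes and 1786 genes in all were higher. No scaling moved the median fold change of all genes by more than 0.055. With the GC and length trend removed, 3214 genes fell and 2561 rose. With a library left out in turn 3226 to 3461 genes fell and 2741 to 3056 rose, and 24 to 26 pathway genes fell and 21 to 28 rose.

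With the replicate number as a block 3782 genes fell and 3257 rose, and 27 and 29 pathway genes. The correlation of deviations between libraries of the same number was weak, at 0.053, 0.067 and -0.0038. Libraries of numbers 1 and 2 each correlated best with their own number, and those of number 3 did not. Correlations this few and this weak cannot decide whether the numbers pair the libraries.

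Signs turned only for genes named beside the members, and the cause was not tested. With the GC and length trend removed, with or without the block, CYB5R4 was at -0.061, PPARD at 0.059, NFYB at -0.043, SUCLG2 at -0.019 and THNSL1 at -0.070. Scaled to recovered totals SCAP was at 0.0059, PPARD at 0.039, MLXIP at 0.0069, SP1 at 0.017 and BLOC1S2 at 0.034. With quantile normalization NR1H3 was at -0.0080 and BLOC1S2 at 0.034. With each library left out in turn NR1H3 ran from -0.024 to 0.053 and MIR6746 from -0.27 to 0.47. CYB5R4 alone among these had passed the test. Over the named genes and alternatives 977 values kept sign and side, 27 lost the call, 21 gained it and 21 turned sign.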
